A study of Mus musculus with 16 samples.

Results

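The genes described here are the RNA-binding proteins Igf2bp1, Igf2bp2 and Igf2bp3, the RNA-binding protein Lin28b, the chromatin protein Hmga2, and the transcription factors Plag1 and Arid3a. These are 7 of the 54113 genes listed in both kinds of count file of the series. They were matched by symbol, and the set was chosen by the measured old and young WT levels: Igf2bp3 and Plag1 had lower counts in old WT cells, and genes of the same fetal circuit were put beside them. The comparison of old with young WT is therefore given for them as a description with no test.

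RNA was sequenced in bulk from mouse thymic double-positive (DP) cells, the thymocyte stage that carries both CD4 and CD8, after flow cytometry sorting. By genotype and age the 16 libraries form 5 groups, namely 3 of young WT, 4 of old WT, 3 of young METTL3 KO, 3 of WT with no age labelled and 3 of METTL3 KO with no age labelled. METTL3 is the catalytic enzyme for N6-methyladenosine (m6A) in RNA. The sources used here give neither the age in weeks or months nor the strain or the way in which Mettl3 was deleted, and nothing says whether replicates came from separate animals, so p-values measure only the spread between these libraries.

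In mammals, Lin28b binds the precursors of let-7 microRNAs and blocks their maturation, and let-7 in turn represses Lin28b, Hmga2 and the Igf2bp genes. Of these, Lin28b, Hmga2, Igf2bp1 and Igf2bp3 are high in fetal tissue and low in most adult cells. In blood development this circuit marks the fetal type of lymphopoiesis, in which Igf2bp3 acts beside Lin28b and Arid3a is one of the let-7 targets. The Igf2bp proteins bind and stabilise messenger RNAs and have been described as m6A readers, and Plag1 is a zinc-finger transcription factor known for activating Igf2.

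The sequences that join most of these genes are the let-7 seed and its match in their transcripts. Of 11 mature let-7 family names in RefSeq (GRCm38.p6), 10 shared 1 seed, which is bases 2 to 8 and is in capitals below. let-7j was the exception. let-7d differs from let-7a outside the seed, and all are read 5′ to 3′.
mmu-let-7a-5p: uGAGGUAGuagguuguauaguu
mmu-let-7d-5p: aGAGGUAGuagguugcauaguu
mmu-miR-98-5p: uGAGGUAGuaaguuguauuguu
mmu-let-7j: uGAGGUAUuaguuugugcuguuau

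The reverse complement of the shared seed, CTACCTC, was searched for on the transcript strand of annotated 3′ UTRs (GENCODE M21, GRCm38). It occurred at least once in 6 of the 7 genes, against 9.02% of 21022 genes with an annotated 3′ UTR and 18.9% of the 6195 genes whose 3′ UTR is at least as long as the shortest among the 7. Igf2bp1, Hmga2 and Lin28b each held 4 matches, a number that only 12 of the 21022 genes reached. Arid3a held 2, Igf2bp2 and Igf2bp3 held 1 each, and Plag1 held none in its 2694-base 3′ UTR. Several of these genes entered the set as known let-7 targets, so the count describes the choice, and a match of these letters is not a measured binding site.

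Of the 16 matches, 8 are followed by an A, which makes the longer match CTACCTCA that 3.06% of genes with a 3′ UTR hold. Those 8 are shown because they include 1 or more in each of the 6 genes. The seed match is in capitals and the coordinates are on GRCm38.
Lin28b, chr10:45381019-45381044, minus strand: acccgggcgggaagtCTACCTCatgc
Hmga2, chr10:120364221-120364246, minus strand: gccgacattcaatttCTACCTCagca
Igf2bp1, chr11:95961775-95961800, minus strand: gctgtgcgaagtaaaCTACCTCaagg
Igf2bp1, chr11:95959354-95959379, minus strand: cagcagtgctattaaCTACCTCagcc
Igf2bp1, chr11:95958760-95958785, minus strand: gtataaatggatgaaCTACCTCagtc
Igf2bp2, chr16:22059470-22059495, minus strand: acacacaaataaaagCTACCTCaggt
Igf2bp3, chr6:49086784-49086809, minus strand: tgcatttttactcaaCTACCTCaggt
Arid3a, chr10:79953895-79953920, plus strand: aaggcaagtttctttCTACCTCaggt

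**Figure D1:**
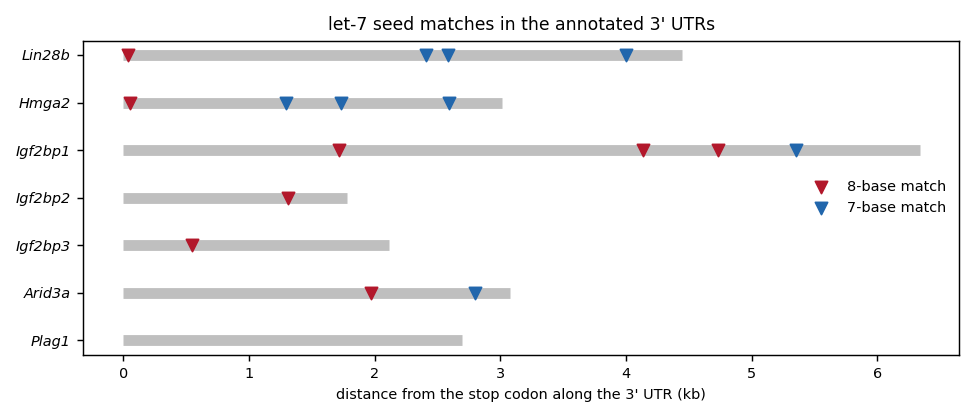
Positions of let-7 seed matches along the annotated 3′ UTR of each gene, in kilobases from the stop codon. Grey bars are the 3′ UTRs, red triangles the 8-base matches and blue triangles the 7-base matches. Lin28b, Hmga2 and Igf2bp1 carry 4 matches each, while the Plag1 bar carries none.

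The mature let-7 microRNAs themselves were not measured by these libraries. Their precursor genes had between 0 and 3 counts in any library, so no statement on let-7 abundance can be drawn from them.

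Gene counts summed to between 9781368 and 10307780 in the 10 libraries with an age and between 10575795 and 16167074 in the other 6. The unaligned share was 0.577% to 0.826% in the former and 50.5% to 52.2% in the latter. Entries that aligned outside genes were 47.5% to 51.2% in the former and 7.23% to 15.03% in the latter. Levels of the 2 sets are therefore given side by side and were not tested against each other. Mettl3, the targeted gene, stood at 63.6 ± 3.65 CPM in young WT (SD, n = 3) and 63.5 ± 1.33 in the libraries labelled young METTL3 KO (n = 3), where CPM is the count scaled to library size, so these counts do not show the labelled deletion. Without an age it was 48.9 ± 4.96 CPM in WT and 32.5 ± 5.75 in METTL3 KO (log2 difference -0.58 ± 0.18, edgeR adjusted p = 0.0189), and gene counts do not show which exons remain. All 16 DP marker genes, Cd4, Cd8a and Rag1 among them, were detected in each group. Old WT replicate 3 stood apart from the other old WT libraries, with 54.1 CPM summed over 5 dendritic cell markers against 2.70 to 4.94.

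Igf2bp3, 1 of the 2 genes whose age values set this choice, lies on the minus strand of chromosome 6 (49085223 to 49214957). Young WT replicates held 34.1, 37.6 and 26.7 CPM. Those labelled young METTL3 KO held 28.4, 31.5 and 33.4 CPM, and old WT replicates 4.39, 4.05, 2.35 and 3.95. Every old WT library was thus far below every young one, of either label, and the 2 young groups overlapped. The raw counts behind these values were 266 to 376 in young WT, 287 to 336 in young METTL3 KO and 22 to 45 in old WT.

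As a description, the log2 difference of old from young WT for Igf2bp3 was -3.14 ± 0.18 (SE), or 8.83-fold lower, which was the 5th lowest value of 14228 genes. With any 1 library left out the log2 difference ranged from -3.27 to -2.98. The value nearest to 0 was that without old WT replicate 3, which held the fewest Igf2bp3 counts. Among old WT libraries that replicate had the highest summed B cell, myeloid and dendritic markers, but not the highest stromal and endothelial sum. The part of these markers in its Igf2bp3 value was not tested. Between old and young WT, edgeR called 36 of 14228 genes (0.253%), and 9.77% of the genes had groups that did not overlap in CPM. In bulk RNA, fewer cells with a transcript and less of it per cell cannot be told apart.

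Plag1, the other of these genes, lies on chromosome 4 (3900996 to 3938423, minus strand), 464 bp from Chchd7 and without shared exons. Its CPM was 5.44, 6.10 and 4.52 in young WT, 4.76, 5.52 and 5.16 in young METTL3 KO, and 2.24, 1.78, 2.46 and 2.60 in old WT. The highest old WT library was below the lowest young one. The log2 difference of old from young WT was -1.23 ± 0.21 (SE), or 2.35-fold lower, the 51st lowest of the genes tested, and it ranged from -1.34 to -1.13 with any 1 library left out. Chchd7, which starts beside Plag1 on the other strand, stood at 14.8 ± 3.01 CPM in young WT (SD, n = 3) and 11.9 ± 2.10 in old WT (SD, n = 4; log2 difference -0.31 ± 0.17, edgeR adjusted p = 0.473).

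For the other members that entered the fit, the old and young WT ranges overlapped. Igf2bp2 held 2.53, 1.40 and 1.71 CPM in young WT and 2.34, 2.18, 1.39 and 2.41 in old WT (log2 difference 0.15 ± 0.30, SE). With 1 library left out this value lay between -0.03, without young WT replicate 2, and 0.42, without young WT replicate 1, so its sign was not settled. Arid3a, a DNA-binding protein of the AT-rich interaction domain family, was at 16.8, 17.8 and 17.6 CPM in young WT and 13.9, 21.2, 21.6 and 21.2 in old WT (0.16 ± 0.15). Old WT replicate 1 was the lowest Arid3a library with an age, and the other 3 old WT libraries were the highest. Without that replicate the Arid3a difference was 0.29 ± 0.10, and with any other library left out it was between 0.11 and 0.18. Igf2bp1, Lin28b and Hmga2 had too few counts to enter the fit, and they are given by their counts below.

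**Figure D2:**
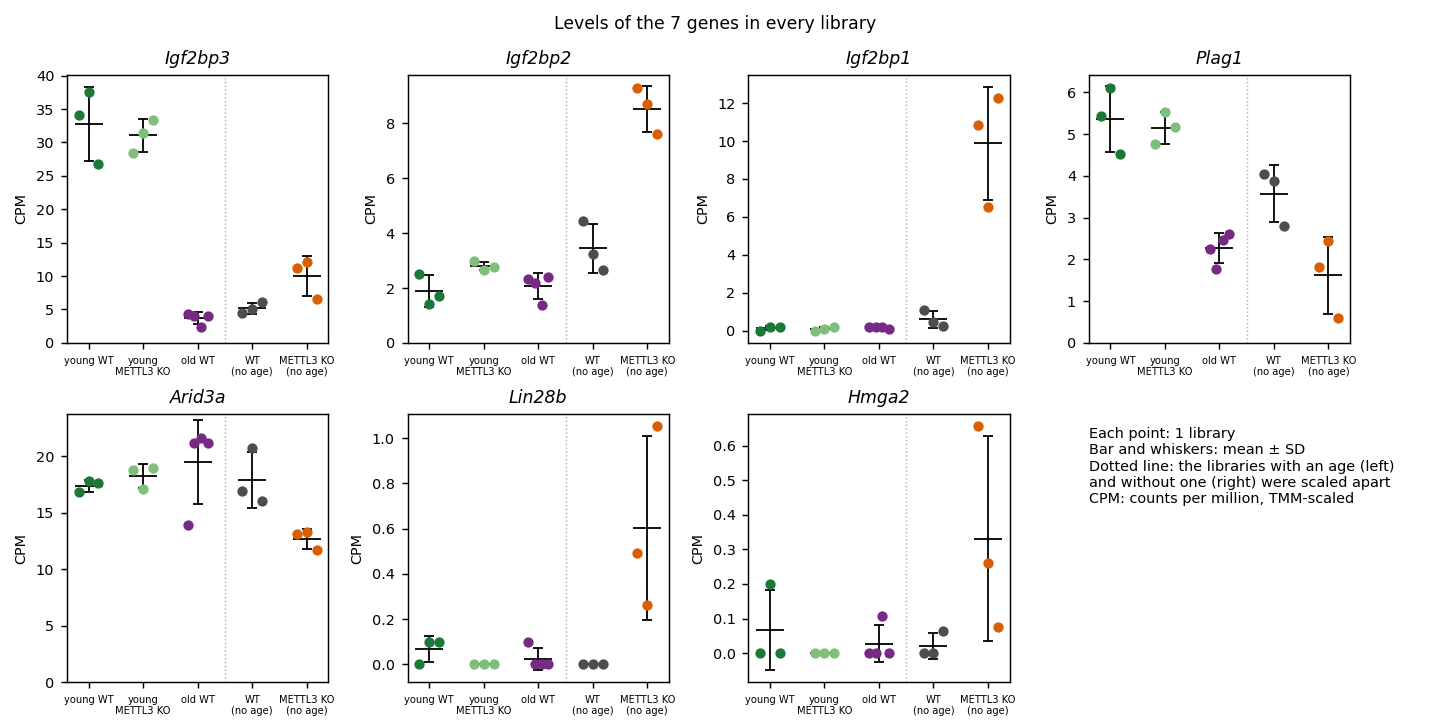
CPM of each of the 7 genes (y axis, a separate scale per panel) in the 5 groups (x axis), where a point is 1 library and bars give the mean ± SD. In the Igf2bp3 and Plag1 panels the old WT points lie below all young points, and in the Igf2bp1 panel the METTL3 KO points without an age, at 6.52 to 12.3 CPM, lie far above the rest.

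Lin28b, the upstream member of the circuit, was near 0 in every library with an age. Young WT held 0, 1 and 1 counts, old WT 1, 0, 0 and 0, and young METTL3 KO none. Summed over 3 young WT libraries this is 2 counts in 30198472, and a count of 0 in the young METTL3 KO libraries allows up to 0.0993 CPM. Hmga2, an architectural chromatin protein repressed by let-7, had 2 counts in young WT replicate 2, 1 in old WT replicate 3 and none in the other 8 libraries with an age. The paralogue Lin28a held 2 counts in young WT, 3 in old WT and none in young METTL3 KO. The name of a Lin28b programme therefore has almost no measured Lin28b behind it in these WT cells: young WT libraries held 266 to 376 counts of Igf2bp3 and no more than 1 of Lin28b. Floors and intervals of this kind cover counting error only.

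Levels of different genes were compared per length, as RPKM (CPM per kilobase of merged exons). In young WT the order was Igf2bp3 (4.02 ± 0.679, SD, n = 3), Arid3a (3.13 ± 0.0938), Plag1 (0.631 ± 0.0933), Igf2bp2 (0.254 ± 0.0786) and then Igf2bp1, Hmga2 and Lin28b, all under 0.03 in each library. The first 4 neighbours in that order did not overlap between libraries, and the last 3 genes did. In old WT, Arid3a came first (3.50 ± 0.665, n = 4), and Igf2bp3 (0.452 ± 0.111), Igf2bp2 (0.281 ± 0.0634) and Plag1 (0.268 ± 0.0424) followed with ranges that overlapped each neighbour. The same overlap of these 3 genes was found in WT without an age, at 0.636, 0.466 and 0.421 RPKM.

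Within the Igf2bp family, Igf2bp3 made up 93.7% ± 1.74 (SD, n = 3) of the summed RPKM of the 3 genes in young WT and 90.7% ± 0.889 (n = 3) in young METTL3 KO. It made up 59.9% ± 1.76 (n = 4) in old WT and 55.1% ± 11.4 (n = 3) in WT without an age. The family sum was 4.29 ± 0.675 RPKM in young WT, 0.751 ± 0.171 in old WT and 1.16 ± 0.0828 in WT without an age. For Igf2bp3 itself, WT without an age stood at 4.43, 5.02 and 6.11 CPM, next to 2.35 to 4.39 in old WT and 26.7 to 37.6 in young WT. These figures come from sets with unequal alignment, and the age of the former animals is not labelled.

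**Figure D3:**
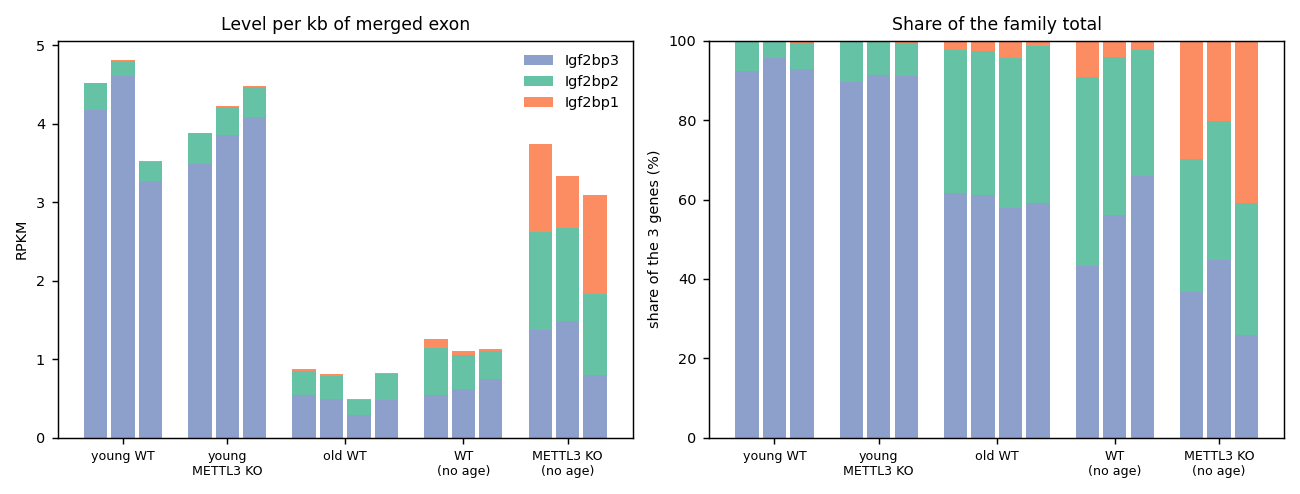
RPKM of Igf2bp1, Igf2bp2 and Igf2bp3 stacked for each library (left) and the share of each in their sum in percent (right), 1 bar per library. Igf2bp3 fills 89.7% or more of every young bar and between 57.9% and 61.5% of the old WT bars, and Igf2bp1 is visible as 20.2% to 40.9% of the METTL3 KO bars without an age.

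One gene on the other strand moved beside Igf2bp3. Malsu1, which encodes a mitochondrial ribosome assembly factor, shares 1529 bp of exon with Igf2bp3, and whether counting used the strand is not stated. Malsu1 was at 31.3 ± 4.40 CPM in young WT (SD, n = 3) and 14.7 ± 4.49 in old WT (n = 4), a log2 difference of -1.09 ± 0.19 (edgeR adjusted p = 0.0309). The split of reads between the 2 genes is therefore uncertain. In the set without an age Malsu1 was 20.8 ± 1.09 CPM in WT and 20.9 ± 5.08 in METTL3 KO, while Igf2bp3 differed there as given below.

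Across the 10 libraries with an age, the genes whose log2 CPM was most like that of Igf2bp3 were Wdr54 (Pearson r = 0.986), Ptk7 (0.977), Tmem116 (0.976), Fzd10 (0.959) and Wscd1 (0.950), of 11017 genes with a mean of at least 1 CPM. Those most like Plag1 were Fgf13 (0.970), Wdr54 (0.962), Padi4 (0.956), Tspan6 (0.951) and Rtkn (0.947), and the r between Igf2bp3 and Plag1 was 0.952. Igf2bp3 and Plag1 were chosen for lower values in old WT, and for both every old WT library lay below every young one. An r of this size thus describes mainly that step, and the r between the 2 genes partly follows from the choice. Fzd10, a Wnt receptor, went from 12.7 ± 6.90 CPM in young WT (SD, n = 3) to 0.521 ± 0.253 in old WT (n = 4). Ptk7, a receptor-like protein of planar cell polarity, went from 18.2 ± 0.487 to 10.4 ± 0.913. Wdr54 and Rtkn share exon sequence on opposite strands, so these 2 entries are not separate.

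No gene of the related lists was called with age, in a comparison where 0.253% of all genes were, so these counts are at the background and say nothing particular about the lists. Over all 14228 genes, 1716 had an unadjusted p under 0.05 in edgeR. Between old and young WT, 0 of 27 tested let-7 targets were called by edgeR (2 at an unadjusted p under 0.05, 0 by DESeq2), with a median log2 difference of -0.06 against 0.01 over all genes. For genes of microRNA and let-7 processing it was 0 of 15 (1 at an unadjusted p under 0.05, 0 by DESeq2), and for messenger RNAs described as Igf2bp cargo 0 of 11 (2 and 0). Genes of insulin-like growth factor signalling and imprinted growth genes gave 0 of 11 (2 and 0), the other m6A readers 0 of 12 (0 and 0) and the m6A writers and erasers 0 of 11 (0 and 0). Igf2, the classical target of Plag1 and namesake of the Igf2bp family, had no count in any of the 16 libraries. Cdkn1c, an imprinted cell-cycle inhibitor, stood at 5.70 ± 1.17 CPM in young WT and 3.68 ± 1.39 in old WT (edgeR adjusted p = 0.422). Igf1r, the receptor of the pathway and a let-7 target, was at 45.8 ± 2.03 and 36.6 ± 7.34 CPM (adjusted p = 0.371). The smallest adjusted p in these lists was 0.330, for Acvr1b. Also among the 3 of smallest p in a list were Myc, Dgcr8, Ddx17, Dis3l2, Gnas, Actb, Bcl2, Ccnd3, Eif3a, Elavl1, Ythdc1, Zc3h13, Cbll1 and Fto, with log2 differences from -0.19 to 0.53, and H19 (-0.66 ± 0.79) was the only fetal blood gene tested.

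Of the 11 marker lists for DP cells, their neighbours and other cell types, none had a gene called with age by edgeR, at 0 of 81 tested genes (16 at an unadjusted p under 0.05, 3 by DESeq2, which were the B cell genes Cd22, Cd79a and Igkc). The summed B cell markers spanned 449 to 513 CPM in young WT and 502 to 2397 in old WT, with none of the 8 genes at 0 in either group. Summed proliferation markers, from 23 genes, spanned 6916 to 7576 CPM in young WT and 4250 to 7531 in old WT. Early thymocyte markers, from 16 genes, spanned 1457 to 1568 and 1269 to 1783 CPM. Ranges of old and young WT did not overlap for the myeloid and the stromal and endothelial lists. The latter sum was nearly all Pecam1, at a mean of 130.5 CPM in young WT and 123.1 in old WT. Summed myeloid markers spanned 20.9 to 25.6 CPM in young WT and 29.2 to 132 in old WT, with none of 7 genes at 0, and the stromal and endothelial sum spanned 131 to 132 and 121 to 129 CPM, with Pdgfra at 0 in both groups and Col3a1 in old WT. All 8 B cell genes and all 5 tested myeloid genes had log2 differences above 0. Of them 7 and 3 had an unadjusted edgeR p under 0.05, beside 1716 of all 14228 genes. For the remaining lists the ranges overlapped, and the part of these markers in the Igf2bp3 and Plag1 values was not tested.

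The comparison of young METTL3 KO with young WT asks what loss of METTL3 does to these genes in young DP cells, with the limit that Mettl3 counts did not differ. None of the 7 genes was called, and edgeR called 0 of all 14228 genes (0.0%; 88 at an unadjusted p under 0.05, 0 by DESeq2). Igf2bp3 differed by -0.08 on the log2 scale (95% interval -0.45 to 0.29), Plag1 by -0.06 (-0.52 to 0.41) and Arid3a by 0.07 (-0.27 to 0.42). Of the 4 members tested, 0 had an unadjusted p under 0.05 and DESeq2 called 0. The young KO libraries thus kept the high Igf2bp3 and Plag1 values of the young WT libraries within these intervals.

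Igf2bp2 alone had groups that did not overlap in this comparison, as 9.26% of genes did. It held 2.97, 2.66 and 2.78 CPM in the young METTL3 KO libraries against 2.53, 1.40 and 1.71 in young WT. The log2 difference was 0.57 (95% interval -0.10 to 1.24, edgeR adjusted p = 1), from counts of 27 to 30 against 14 to 26. Of the related lists, 0 of 79 tested genes were called by edgeR (0 at an unadjusted p under 0.05, 0 by DESeq2). Those of smallest p in their lists included Igf1r (-0.21 ± 0.14), Dis3l2 (-0.26 ± 0.14), Igfbp7 (-0.34 ± 0.31) and H19 (0.50 ± 0.78), all at adjusted p = 1.

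**Figure D4:**
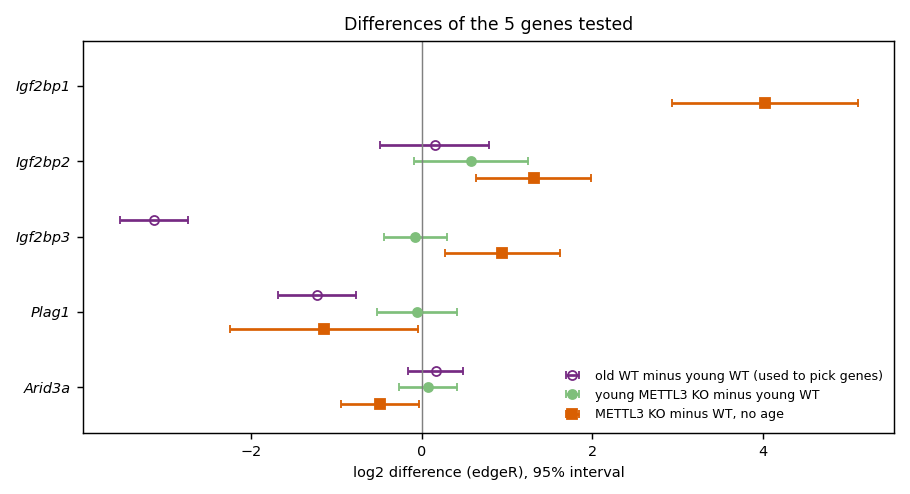
Log2 differences (x axis) of the 5 genes that entered a fit (y axis), with 95% intervals from edgeR. Open circles are old minus young WT, used to choose the genes and not tested, green circles young METTL3 KO minus young WT, and orange squares METTL3 KO minus WT without an age. Igf2bp1 has an interval only in the last, from 2.93 to 5.11, and the green intervals all cross 0.

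In the libraries without an age the family looked different. METTL3 KO libraries held more Igf2bp1, Igf2bp2 and Igf2bp3 than WT, and edgeR called 3 of the 5 members tested. Of these 3, Igf2bp1 entered the fit through its KO counts alone, so its call is partly set by the filter. Without it the calls are those of Igf2bp2 and Igf2bp3. The count of 3 has to be read against 8864 of 16432 genes (53.9%) called in this comparison, 29.9% higher and 24.0% lower. All 5 members tested had groups that did not overlap, as did 63.9% of all genes. These libraries share none with the comparisons above. The choice of genes followed old and young WT levels, but it was made with earlier results of these data known. This contrast can therefore not be called independent of the choice.

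Igf2bp1 had the largest log2 difference of the 5. Its CPM was 1.11, 0.445 and 0.260 in WT and 10.8, 6.52 and 12.3 in METTL3 KO, from 4 to 17 counts against 75 to 163. The lowest KO library was several times the highest WT library. The log2 difference was 4.02 ± 0.50 (SE, 16.2-fold, edgeR adjusted p = 0.000146), and between 3.61 and 4.72 with any 1 library left out. A larger log2 value was found for 4.09% of genes. Of 3634 tested genes under 1 CPM in WT, Igf2bp1 among them, 74.5% were called higher (median log2 difference 2.84). Genes this low in WT can pass the filter through their KO counts alone, as Igf2bp1 did. This share and the Igf2bp1 call are thus partly set by the filter.

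Igf2bp2 rose from 4.43, 3.24 and 2.67 CPM in WT to 9.27, 8.70 and 7.60 in METTL3 KO. Its log2 difference was 1.31 ± 0.31 (SE, 2.48-fold, edgeR adjusted p = 0.00402), and its call held with any 1 library left out (adjusted p from 0.00464 to 0.0245).

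Igf2bp3 was at 4.43, 5.02 and 6.11 CPM in WT and 11.2, 12.2 and 6.55 in METTL3 KO. KO replicate 3 was close to the highest WT library. The log2 difference was 0.94 ± 0.31 (SE, 1.92-fold, edgeR adjusted p = 0.0221). This call was lost without WT replicate 1 (0.79, adjusted p = 0.101), WT replicate 2 (0.87, 0.0817), KO replicate 1 (0.83, 0.0764) or KO replicate 2 (0.70, 0.0998), and also with no filter on low counts (0.77, 0.0607). Sex read from the data was male for 3 WT libraries and for 1 KO library, replicate 3, the other 2 KO libraries being female. With sex as a covariate the Igf2bp3 difference was 0.34. That value rests on KO replicate 3, the KO library lowest in Igf2bp3, against WT, so it cannot tell sex from that 1 library.

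The family sum was 1.16 ± 0.0828 RPKM in WT without an age and 3.39 ± 0.324 in METTL3 KO (SD, n = 3 each), and Igf2bp1 made up 5.22% ± 3.49 and 30.3% ± 10.4 of it. Groups did not overlap for either measure (exact two-sided permutation p = 0.1, the smallest that 3 against 3 libraries allow, and 0.2 adjusted over 8 such tests). In METTL3 KO, Igf2bp3 (1.22 ± 0.368 RPKM), Igf2bp2 (1.15 ± 0.115) and Igf2bp1 (1.02 ± 0.309) had library ranges that overlapped, so no order among them was resolved.

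Lin28b was listed at 0 in all 3 WT libraries without an age, with 48022058 gene counts in sum, and at 6, 3 and 14 counts in METTL3 KO. The summed KO level was 10.3 times a floor of 3 counts over the WT group, 0.0625 CPM. That ratio leaves out the counting error of the KO sum. Lin28a, its paralogue, went from 0 counts to 18, 4 and 17, which is 17.4 times the same floor with the same limit. Hmga2 went from 0, 0 and 1 counts to 8, 3 and 1, a ratio of 16.05 with an exact 95% counting interval of 2.37 to 686, and replicate 3 held 1 count in both groups. Of 27345 genes at 0 in all 3 WT libraries, 343 (1.25%) reached the 23 KO counts of Lin28b. The former are all genes listed, with no filter, so many may have no transcript in either group, and the cut-off is that of Lin28b itself. None of the 3 genes entered the edgeR fit. With no filter on low counts Lin28b was called (edgeR adjusted p = 0.00955) and Hmga2 was not (0.202).

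Plag1 and Arid3a pointed the other way. Plag1 held 4.04, 3.87 and 2.80 CPM in WT and 1.81, 2.44 and 0.602 in METTL3 KO, with no overlap. Its log2 difference of -1.15 ± 0.50 (SE) did not pass (edgeR adjusted p = 0.0733). It passed without KO replicate 2 (-1.64, 0.0284) and with no filter on low counts (-1.31, 0.0346). With sex as a covariate the Plag1 difference was -2.55. That value rests on KO replicate 3, the only male KO library and the lowest in Plag1, against WT, so it is no check on the others. Arid3a held 17.0, 20.7 and 16.1 CPM in WT and 13.1, 13.3 and 11.7 in METTL3 KO. Its difference of -0.49 ± 0.21 did not pass either (adjusted p = 0.067), and passed without KO replicate 2 (-0.61, 0.0465) and with no filter (-0.67, 0.0304).

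**Figure D5:**
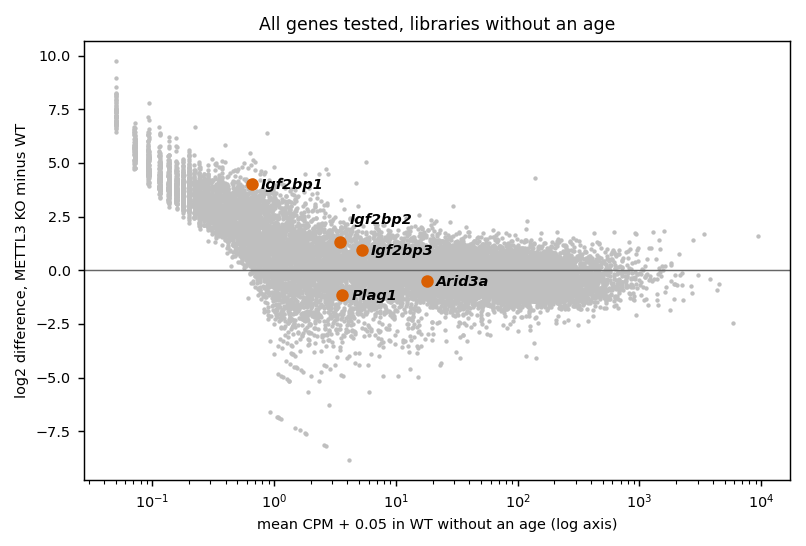
Log2 difference of METTL3 KO from WT (y axis) against mean CPM in WT plus 0.05 on a log axis (x axis) for the 16432 genes tested in the libraries without an age, in grey. Orange points are the 5 members tested. Igf2bp1 lies among tested genes under 1 CPM in WT, which can enter through KO counts alone and have a median log2 difference of 2.84. Arid3a at 17.9 CPM lies slightly below 0.

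Several measures of the libraries differed in this contrast. The counts of markers called below stand beside 29.9% of 16432 genes called higher and 24.0% called lower, and several are near these shares. METTL3 KO libraries had 24778 to 25895 genes with a count against 21748 to 23094 in WT, at fewer counts in sum, and 11.8% to 15.03% of entries outside genes against 7.23% to 7.60%. Summed markers of DP cells spanned 25989 to 28933 CPM in WT and 14805 to 17702 in KO, with 8 of 16 genes called lower. Of these Rag1, the recombinase subunit, fell by 2.44 on the log2 scale (adjusted p = 4.11e-05). Summed B cell markers spanned 541 to 656 and 772 to 1192 CPM, with 7 of 8 genes called higher and none at 0. Dendritic cell markers spanned 3.78 to 4.89 and 9.56 to 23.7 CPM, with 4 of 5 called higher. Myeloid markers spanned 14.2 to 21.8 and 29.4 to 39.9 CPM (2 of 6 tested called higher), and thymic epithelial markers 6.48 to 6.72 and 8.70 to 13.4 CPM (1 of 3), with Krt5 at 0 in WT. Of the stromal and endothelial markers 3 of 4 tested were called higher, although their sum was lower in KO, at 109 to 135 against 138 to 161 CPM. Markers of natural killer and unconventional T cells spanned 98.3 to 128 and 124 to 162 CPM (2 of 6 higher), those of mature single-positive thymocytes 220 to 286 and 121 to 156 (1 of 5 lower), and erythroid markers 1.76 to 14.7 and 0.328 to 2.33 (1 of 2 lower). Early thymocyte markers spanned 1732 to 2020 and 1807 to 2207 CPM, with 5 of 15 tested called higher and 1 lower, and proliferation markers fell in 16 of 23 genes (5113 to 5432 and 2928 to 3345 CPM). The part of these measures in the Igf2bp1, Igf2bp2 and Igf2bp3 values was not tested.

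The list of other let-7 targets held both rises and falls. Among 30 tested, edgeR called 3 higher and 12 lower, beside 29.9% and 24.0% of all genes, with a median log2 difference of -0.34 against 0.08 over all genes. The 3 that rose were Trim71 (from 0.642 to 7.11 CPM, log2 difference 3.45 ± 0.59, adjusted p = 0.000708), a developmental RNA-binding ubiquitin ligase, the microtubule-severing gene Fign (2.71 ± 0.69, 0.00631) and the transcription factor Hic2 (0.77 ± 0.21, 0.0102). Trim71 and Fign, the latter at 0.668 CPM in WT, are among the tested genes under 1 CPM in WT. Of these 74.5% were called higher, a share that the filter favours. Of this list Trim71, Hic2 and Nr6a1 are among the 12 genes with 4 or more seed matches, and Nr6a1, which holds the most with 8, had a log2 difference of -0.52 and was not called. Those that fell included the growth signalling genes Nras (-0.73 ± 0.15, 0.00206) and Irs2 (-1.65 ± 0.37, 0.00353), the cell-cycle kinase Cdk6 (-0.70 ± 0.17, 0.00422) and Bach1 (-1.68 ± 0.25, 0.000364). Rrm2, Tgfbr1, Ccnj, Insr, Cdc25a and Dicer1 also fell, with log2 differences from -1.09 to -0.40.

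Most tested genes of microRNA and let-7 processing were lower in the METTL3 KO libraries without an age. Of 16 such genes 12 were called lower and 0 higher, beside 24.0% and 29.9% of all genes. All genes here include 3634 under 1 CPM in WT, of which 74.5% were called higher. Shares over better expressed genes alone were not computed. They include genes that make or use let-7 as well as genes that degrade its precursors. Ago2, the slicing Argonaute, fell by 1.63 ± 0.17 on the log2 scale (edgeR adjusted p = 8.45e-05). Tut7 and Tut4, the uridylyl transferases that Lin28 proteins recruit to let-7 precursors, fell by 0.99 ± 0.15 (adjusted p = 0.000326) and 1.21 ± 0.23 (0.0012). Dicer1, which cuts the precursors, fell by 0.40 ± 0.14 (0.0302). The other 8 were the Argonautes Ago3 and Ago1, the helicases Ddx17 and Ddx5, Dgcr8, Khsrp, Dis3l2 and Prkra, from -1.21 to -0.51.

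Genes of growth factor signalling and imprinting split, with 6 called higher and 5 lower of 15, beside 29.9% and 24.0% of all genes. Igf1 rose from 0.925 to 7.19 CPM (log2 difference 2.95 ± 0.41, edgeR adjusted p = 0.000241) and the imprinted long non-coding RNA Meg3 from 0.733 to 18.3 CPM (4.63 ± 0.39, adjusted p = 4.73e-05). Plagl2, the paralogue of Plag1, fell from 88.6 to 37.8 CPM (-1.22 ± 0.18, 0.000349), and Igf2r, the receptor that clears Igf2, from 128 to 73.1 CPM (-0.80 ± 0.19, 0.00373). Igfbp6, Igfbp7, Grb10 and Irs1 also rose, with log2 differences from 2.62 to 3.92, from 0.106 to 0.301 CPM in WT. Those 4, Igf1 and Meg3 were thus all under 1 CPM in WT, where 74.5% of tested genes were called higher, a share that the filter favours. Gnas, Irs2 and Insr fell. Among messenger RNAs described as Igf2bp cargo 4 of 13 were called higher and 4 lower, beside the same shares of all genes. Hoxa9 rose by 4.14 ± 0.59 on the log2 scale (0.000264) and Meis1 by 2.87 ± 0.38 (0.000205), both being homeobox genes of immature blood cells, while Ctnnb1, encoding beta-catenin, fell by 1.60 ± 0.16 (6.15e-05). Mapk4 (3.54 ± 0.37) and Bcl2 (0.64 ± 0.17) rose, Hoxa9 and Mapk4 being at 0.236 and 0.731 CPM in WT, and Pabpc1, Cdk6 and Btrc fell.

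None of the other m6A readers was called higher. The shares of all genes given next again include the 3634 genes under 1 CPM in WT, most of them called higher. Of 12 tested, 8 were called lower, beside 24.0% of all genes called lower and 29.9% higher, among them Ythdf2 (-0.77 ± 0.17, edgeR adjusted p = 0.00253) and Fmr1 (-1.04 ± 0.19, 0.00099). Ythdc2, Ythdf1, Eif3a, Hnrnpa2b1, Hnrnpc and Rbmx were the other 6, from -1.07 to -0.48. Of 11 m6A writers and erasers 10 were called lower and 0 higher, beside the same shares, including both erasers, Alkbh5 (-1.06 ± 0.14, 0.000193) and Fto (-0.89 ± 0.16, 0.00102). The other 8 were Mettl3 itself, Mettl14, Mettl16, Wtap, Virma, Rbm15, Rbm15b and Cbll1, from -1.21 to -0.45. Of the list of fetal blood genes only 3 of 11 were tested, and 2 were called higher, Meg3 and Zbtb16 (2.97 ± 0.60, 0.00176).

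Whether the KO-minus-WT difference was unequal between the set without an age and the young set was tested as an interaction over 12 libraries. Here 2 of 5 members were called, against 36.9% of 16557 genes. The 12 libraries were filtered and scaled together, so the values are not exact differences of the separate log2 differences given above. The median over all genes was 0.14. Igf2bp1 was 4.57 ± 1.48 (SE) log2 units more raised in the set without an age (edgeR adjusted p = 0.0254). It held 0 to 2 counts in each young library, so its high METTL3 KO counts without an age brought it into this fit. Igf2bp3 was 1.19 ± 0.31 more raised (edgeR adjusted p = 0.00768). Igf2bp2 (0.91 ± 0.40, 0.0867), Plag1 (-0.92 ± 0.50, 0.163) and Arid3a (-0.39 ± 0.21, 0.157) did not pass. The Igf2bp2 value was 0.39 without young WT replicate 1. The Igf2bp1 call was lost without young WT replicate 2 or 3 (adjusted p = 0.137 each) or young KO replicate 1 (0.0562) or 2 (0.0513), and the Igf2bp3 call without young WT replicate 1 (0.0556) or 2 (0.0728) or young KO replicate 1 (0.063). Plag1 and Arid3a passed without METTL3 KO replicate 2 of the set without an age (-1.54, adjusted p = 0.0174, and -0.63, 0.028), and Arid3a also without its replicate 1 (-0.61, 0.041) or without young KO replicate 2 (-0.68, 0.0443). With 1 library left out the Arid3a value lay between -0.68 and -0.30, and it was -0.65 with no filter on low counts (0.0832). Leaving out any 1 young library shifted the fit for all genes. It then tested 18324 to 18338 genes, with a median of 0.02 to 0.04, and Arid3a lay between -0.68 and -0.61. Calls lost or gained without a young library thus cannot be told apart from that shift. Mettl3 itself fell in the set without an age and not measurably in the libraries labelled young METTL3 KO (log2 difference -0.002 ± 0.085, adjusted p = 1; interaction -0.41 ± 0.19, 0.106), so what the interaction compares depends on a label that these counts do not bear out. The sets also differ in alignment and in whether an age is labelled, and which of these goes with the unequal differences cannot be told apart.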

How the data were processed

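The authors deposited 1 table of raw read counts per gene for each of 16 libraries of sorted DP thymocytes. The submitters' processing notes name HISAT2 2.0.5 and mm10. Which program counted reads, on which annotation and with which strand option is not given in the sources used here. Ensembl identifiers were matched to symbols (55154 of 55335 with an age, 54409 of 54532 without). Summary lines that name no gene were left out of totals and tests.

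Counts were fitted with edgeR 4.0.16 (R 4.3.3, limma 3.58.1): filterByExpr, TMM scaling, robust quasi-likelihood test, Benjamini-Hochberg adjustment over all genes tested, two-sided, threshold 0.05. The 3 groups with an age shared 1 fit, the other 6 libraries had their own, and the interaction used 12. CPM is TMM-scaled per set, and RPKM divides it by merged exon length (GENCODE M21). The fits were tested on simulated data. Alternatives were DESeq2 1.42.0, its size factors, library size alone, no filter, the replicate number as a block, the 2 groups alone, sex as a covariate, and each library left out. Tables and figures used Python 3.11.15, pandas 2.3.3, numpy 2.4.6 and matplotlib 3.10.9.

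The 7 members and the gene lists were chosen with earlier results of these data known. Besides the members, the text names Mettl3, called genes of each of 7 pathway lists or otherwise those of the 3 smallest p (some only, where none was called), the 5 genes most like Igf2bp3 and Plag1 by Pearson r (prior count 2), and genes overlapping a member. Some called genes of the let-7 target list are counted but not reported by name here. Chchd7, Igf2, Lin28a and the marker genes were named after their values were seen. MicroRNA sequences are from RefSeq (GRCm38.p6) and 3′ UTRs from GENCODE M21 transcripts, the one with the longest 3′ UTR per gene. No 2 libraries agreed within counting noise (chi-square over degrees of freedom 3.20 to 72.5 for 18 pairs).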

Additional observations from a re-analysis of the deposited data

Results flagged for a closer look

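In old WT, 1 of 4 libraries lay apart from the other 3 for 4 genes, by a gap that is large against the range of the group. The gap took 0.941 of the range for Arid3a, where replicate 1 stood at 13.9 CPM and the others at 21.2 to 21.6. It took 0.838 for Igf2bp1, where replicate 4 held 1 count and the others 2 each, and 1 for Lin28b (1 count in replicate 1, 0 in the rest) and for Hmga2 (1 count in replicate 3, 0 in the rest). The last 3 rest on single counts: for Lin28b and Hmga2 the gap takes the whole range whenever 1 library holds the only count, so that value carries no information. Chance alone marks about 1 in 20 groups of continuous values, as for Arid3a.

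The METTL3 KO difference was called unequal between the set without an age and the young set for 2 genes. By the interaction test given above it was 4.57 log2 units for Igf2bp1 and 1.19 for Igf2bp3. Igf2bp1 entered that fit through its METTL3 KO counts without an age. Both calls were lost in several fits with 1 young library left out, and Mettl3 counts do not bear out the young METTL3 KO label.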

How the results depend on the processing

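The number of genes called with age, 36, depended most on the processing: 85 with no filter on low counts, 129 by DESeq2, 11 with the 2 groups alone, and 8 to 59 with 1 library left out. With the replicate number as a block it was 61, although same-numbered libraries did not deviate together (r from -0.23 to 0.09 over 9 pairs with an age and from -0.13 to 0.01 over 3 pairs without). Under that replicate block the KO call of Igf2bp3 without an age was lost (0.91, edgeR adjusted p = 0.0579), and no other KO or interaction call on a member changed. For young METTL3 KO, 1 gene was called with no filter on low counts. With 1 library left out, the young KO difference ranged from -0.207 to 0.030 for Igf2bp3 and from -0.165 to 0.046 for Plag1, both turning positive without young WT replicate 2. Of the members, 5 rather than 3 were called for KO without an age with no filter, where Plag1, Arid3a and Lin28b were gained and Igf2bp3 was lost, and 2 to 4 with 1 library left out, while the interaction called 0 to 4. Depth limits Igf2bp1, Lin28b and Hmga2, which held at most 2 counts in any library with an age.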
